A study of Mus musculus with 12 samples.

Results

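The costimulatory receptors of T cells described here are 8 genes, Tnfrsf4, Tnfrsf18, Tnfrsf9, Cd27, Icos, Cd28, Cd2 and Cd226, taken by name from the 31053 genes measured. They were read in single-cell RNA-Seq of CD45+ cells sorted from subcutaneous MC38 tumors, a mouse colon carcinoma line, grown in C57BL/6 mice and harvested on day 17. The 12 mice formed 4 groups of 3 mice, given daily vehicle or 100 mg/kg of PF-06821497, an inhibitor of the histone methyltransferase EZH2 (EZH2i), for 7 days from day 10 or for 16 days from day 1. No label ties the 12 libraries to mice or groups, so no level below was compared between EZH2i and vehicle, no library is called treated, and the matrix counts as 1 pooled sample without replicates and without p-values.

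A T cell that sees antigen needs further signals to expand and survive, and these receptors deliver them. OX40 (Tnfrsf4), GITR (Tnfrsf18), 4-1BB (Tnfrsf9) and CD27 belong to the tumor necrosis factor receptor family, recruit TRAF adaptors and feed into NF-kB. CD28 and ICOS are relatives that bind B7 family ligands and signal through PI3 kinase, while CD2 and CD226 (DNAM-1) bind adhesion ligands of the CD48 and nectin families. OX40, GITR, 4-1BB and ICOS are known to rise on activated T cells, and regulatory T cells are known to carry OX40, GITR and ICOS at high levels.

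Gates were set on lineage unique molecular identifiers (UMIs) only, so none of the 8 genes chose a cell. Of 128912 cells kept, 3605 were CD8 T cells, 724 CD4 T cells without Foxp3, 34 Foxp3+ T cells, 65 gamma delta T cells and 418 NK cells, while 107893 cells lay outside the lymphocytes. Levels are UMIs per 1000000 UMIs (CPM) after summing the cells of a gate. Intervals are exact 95% binomial intervals that cover counting error only. A gene was called past the fold when the pooled levels differed at least 2-fold and every library that held 20 cells or more on each side gave the same direction. Where 20 cells were reached in fewer than 3 libraries, the whole interval had to lie on 1 side of 1 instead.

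The libraries held 4256 to 38110 barcodes (median 8465.5) and 21649947 to 158760328 UMIs (median 73715428.5), and the median cell kept had 2291 to 15081 UMIs. Library 4 stood apart with 24 T and NK cells, 0.212% of its cells against up to 10.3% elsewhere, and library 6 was the shallowest per cell. Of 138353 distinct barcodes 2261 occurred in more than 1 library, among them 155 T and NK cells, and UMIs of Y-linked genes were found in 6 libraries although the mice are described as female. In CD8 T cells the ranges of the 5 libraries with and the 6 without Y-linked UMIs overlapped for each of the 8 receptors. The overlap was narrow for 2 of them and does not show equal levels. Tnfrsf18 ran from 206 to 319 CPM with Y-linked UMIs and from 166 to 227 CPM without. Cd2 ran from 152 to 253 CPM with them and from 228 to 428 CPM without.

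Markers that the T and NK gates did not use were read as a check. Trbc2, a T cell receptor constant region that was used to set apart only the cells outside the lymphocytes, stood at 1077 CPM in CD8 and 999.5 CPM in CD4 T cells and at 176 CPM in the NK gate. Prf1 (perforin) was highest in NK cells, at 454 CPM, as was Klrd1, at 923 CPM. Nkg7, read with them, went the other way, at 1588 CPM in NK cells against 2008 CPM in CD8 T cells. It also stood at 1205 CPM in the CD4 gate, with a UMI in 61.0% of those cells, and 18.6% of them had a UMI of Klrd1. The gamma delta gate had Il17a at 852 CPM and still had a UMI of Trac in 30.8% of its cells. In the CD4 gate Ikzf2 (Helios) and Il2ra (CD25), both common in regulatory T cells, stood at 652 and 224 CPM, and Foxp3 was found in only 73 of all cells kept, so the lack of a Foxp3 UMI does not mark a cell as conventional. Apoe, a macrophage gene, was at 581 to 738 CPM in the 5 T and NK gates against 17085 CPM outside the lymphocytes, while the B cell gate held 7677 CPM. The part of such free or mixed RNA in the levels was not tested. The levels of each receptor in macrophages, neutrophils and B cells are given together with the other cells below.

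On mm10 (GRCm38), Tnfrsf4 (chr4:156013843-156016612, plus strand) and Tnfrsf18 (chr4:156026164-156028895, plus strand) are separated by 9551 bases, and Tnfrsf9 (chr4:150914562-150946102, plus strand) lies 5.08 megabases away. Cd28 (chr1:60716800-60773359, plus strand) and Icos (chr1:60977927-61000320, plus strand) flank Ctla4, which ends 62094 bases before Icos. Cd27 is at chr6:125232622-125237010 and Cd2 at chr3:101275899-101287939, both on the minus strand. Tnfrsf4 starts 232 bases after the end of Sdf4, which encodes a calcium-binding protein of the Golgi, and both run on the plus strand. On the opposite strand Tnfrsf18 overlaps Gm16008, Tnfrsf9 overlaps Camta1 and Cd27 overlaps Vamp1. Whether the authors' counting used strand is not given in the sources used here.

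Sequence next to the starts of Tnfrsf4, Tnfrsf18 and Tnfrsf9 is shown because these 3 genes were higher together in mature dendritic cells and in CD4 T cells with regulatory markers. RefSeq windows (GRCm38.p6) of 250 bases before the annotated start were at hand for 4 of the 8 members, Cd27 being the fourth, and only stretches without annotated exon bases of any gene are printed. The Tnfrsf4 stretch is chr4:156013611-156013694, the gap between Sdf4 and the RefSeq start. The Tnfrsf18 stretch is chr4:156026072-156026163, and the Tnfrsf9 stretches are chr4:150919905-150920154 for the first start and chr4:150927749-150927917 for the second, all on the plus strand.
Tnfrsf4: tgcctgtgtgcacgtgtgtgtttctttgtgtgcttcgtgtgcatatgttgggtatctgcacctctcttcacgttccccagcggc
Tnfrsf18: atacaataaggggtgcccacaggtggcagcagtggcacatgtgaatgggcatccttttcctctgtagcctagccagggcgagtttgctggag
Tnfrsf9, first start: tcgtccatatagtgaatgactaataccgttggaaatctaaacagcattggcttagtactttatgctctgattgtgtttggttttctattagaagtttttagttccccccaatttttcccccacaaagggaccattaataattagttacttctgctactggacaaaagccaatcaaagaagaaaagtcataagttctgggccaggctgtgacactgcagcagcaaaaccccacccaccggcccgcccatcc
Tnfrsf9, second start: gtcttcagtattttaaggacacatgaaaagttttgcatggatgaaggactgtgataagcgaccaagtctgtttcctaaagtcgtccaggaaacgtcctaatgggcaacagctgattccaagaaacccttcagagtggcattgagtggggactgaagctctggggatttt

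The windows were searched on both strands for the letters GGGNNTTTCC, a form of the NF-kB site, and TGANTCA, a form of the AP-1 site. Both were found in 1 of the 5 member windows, that of the second Tnfrsf9 start, as GGGGATTTCC from 43 to 34 bases and TGAGTCA from 15 to 9 bases before that start, inside an exon of a longer transcript. GGGNNTTTCC was present in 1.41% of 32851 mouse windows of the same length, TGANTCA in 6.75% and both in 0.128%. A match describes letters and says nothing about binding in these cells.

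All 8 receptors were higher in the T and NK cells together than outside the lymphocytes, in 12 of 12 libraries each. By this rule 6.23% of 16438 genes were higher and 12.2% lower. The ratio was 16.8 for Tnfrsf9 (95% interval 16.3 to 17.3) and 63.6 for Tnfrsf18, and between 102 and 323 for the other 6, with Icos at the upper end (298 to 351). Cells thinned to 1000 UMIs each carried a UMI of 2.43 of the 8 receptors on average in CD4 T cells, 2.66 in Foxp3+ T cells, 1.25 in CD8 T cells, 1.18 in gamma delta T cells and 0.773 in NK cells. The same mean was 0.145 in B cells and 0.0346 outside the lymphocytes. Of thinned CD4 T cells 48.4% had 3 or more of the receptors, against 12.8% of thinned CD8 T cells. The thinning left out 330 CD8 and 61 CD4 T cells below 1000 UMIs.

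**Figure D1:**
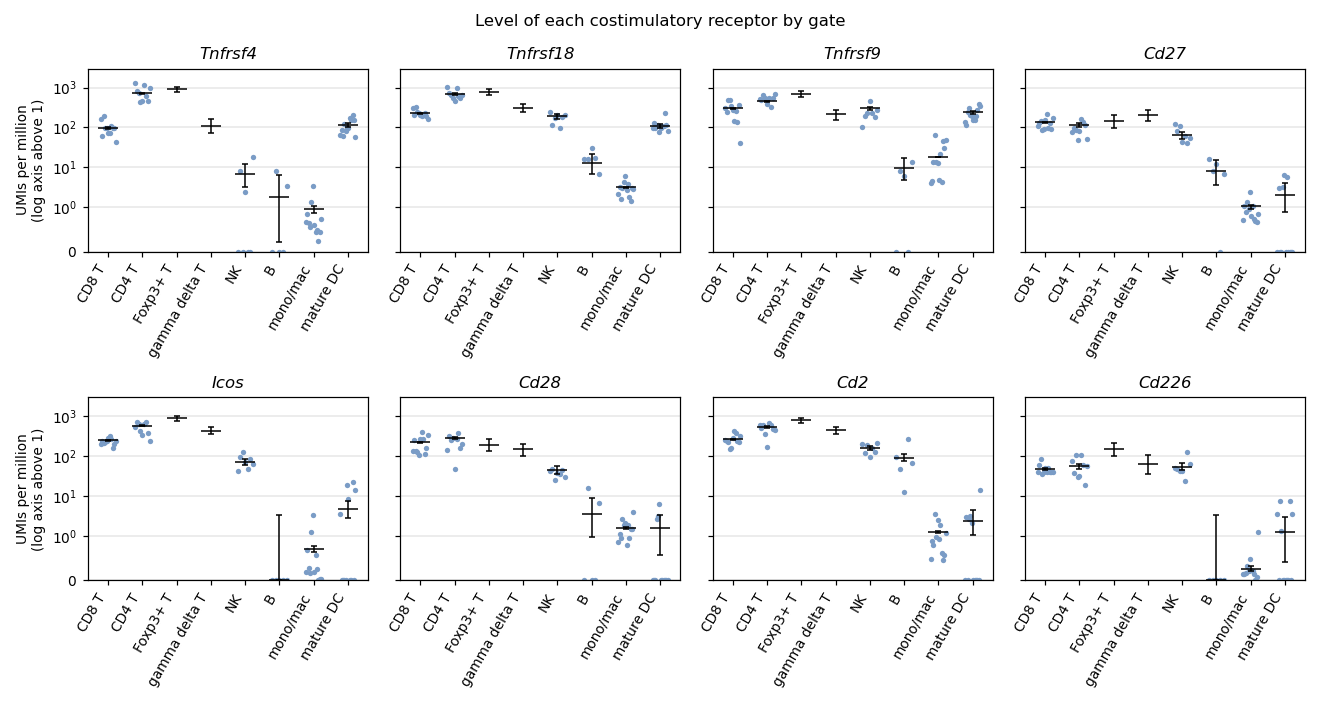
Level of each receptor in 8 gates, in CPM on an axis that is logarithmic above 1. Points are libraries in which the gate held 20 cells or more, black marks are all cells pooled with the 95% counting interval. CD4 T cells stood above CD8 T cells for Tnfrsf4, Tnfrsf18, Icos and Cd2, and mature dendritic cells (mature DC) stood near CD8 T cells for Tnfrsf4 and Tnfrsf9 and lower for Tnfrsf18. mono/mac, monocytes or macrophages.

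The first question was how the receptors divide between the CD8 and CD4 lineages. Of the 8, 4 were past the fold, all lower in CD8 than in CD4 T cells in 9 of 9 libraries, where 1.45% of 11175 genes were lower and 0.832% higher. Tnfrsf4, which encodes OX40, had the widest gap. In CD4 T cells it ranged from 447 to 1312 CPM over 9 libraries (median 725) and in CD8 T cells from 43.5 to 192 CPM over 11 libraries (median 95.1), and these ranges did not overlap. The pooled levels were 713 and 99.2 CPM, a CD8 to CD4 ratio of 0.139 (0.130 to 0.149). At 1000 UMIs 39.5% of CD4 and 6.72% of CD8 T cells had a Tnfrsf4 UMI, against 0.301% of neutrophils, and without thinning the shares were 63.1% and 16.3%, at median depths of 3154 and 2789 UMIs.

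Tnfrsf18, encoding GITR, followed the same order with a narrower gap. Its libraries spanned 471 to 1045 CPM in CD4 T cells (median 654) and 166 to 319 CPM in CD8 T cells (median 208), again without overlap. The ratio of CD8 to CD4 was 0.336 (0.318 to 0.356). Tnfrsf9, encoding 4-1BB, the receptor that the study's agonist antibody targets in other experiments, was closer between the lineages. Its CD8 libraries spanned 40.8 to 486 CPM (median 279) and its CD4 libraries 325 to 695 CPM (median 546), and the ranges overlapped. CD8 T cells were lower within each of the 9 libraries, for example at 352 against 388 CPM in library 6 and 147 against 325 CPM in library 8, and the pooled ratio of 0.677 (0.636 to 0.721) was not past the fold.

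Cd27 was the receptor whose pooled level was higher in CD8 T cells, and not past the fold. Encoding a receptor of naive and memory T cells whose ligand is CD70, it stood at 135 CPM in CD8 (87.8 to 216, median 126) and 113 CPM in CD4 T cells (49.7 to 161, median 86.7). CD8 T cells were higher in 7 of 9 libraries, and the pooled ratio was 1.19 (1.06 to 1.35).

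Icos, the inducible costimulator, was lower in CD8 T cells in 9 of 9 libraries with a ratio of 0.429 (0.405 to 0.455). Its libraries ran from 161 to 325 CPM in CD8 (median 237) and from 243 to 716 CPM in CD4 T cells (median 555), so the ranges met at the lower CD4 libraries. Cd28, the receptor for CD80 and CD86, differed less, at 227 CPM in CD8 and 290.3 CPM in CD4 T cells. It was lower in CD8 T cells in 6 of 9 libraries, and in library 6 the order turned, with 108 CPM in CD8 against 49.5 CPM in CD4 T cells.

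Cd2, an adhesion receptor of T and NK cells, sat at the edge of the fold, with a CD8 to CD4 ratio of 0.491 (0.463 to 0.521). Its libraries ran from 152 to 428 CPM in CD8 (median 242) and from 173 to 678 CPM in CD4 T cells (median 517). All 9 libraries gave the lower level in CD8 T cells, narrowly in library 6 (167 against 173 CPM) and more widely in library 11 (228 against 461 CPM). The call was lost when library 3, 5 or 6 was left out, at log2 ratios of -0.99, -0.95 and -0.99. Cd226 was low and alike in both, at 48.1 CPM in CD8 (35.8 to 85.7) and 56.1 CPM in CD4 T cells (19.7 to 110), and CD8 T cells were lower in 5 of 9 libraries.

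**Figure D2:**
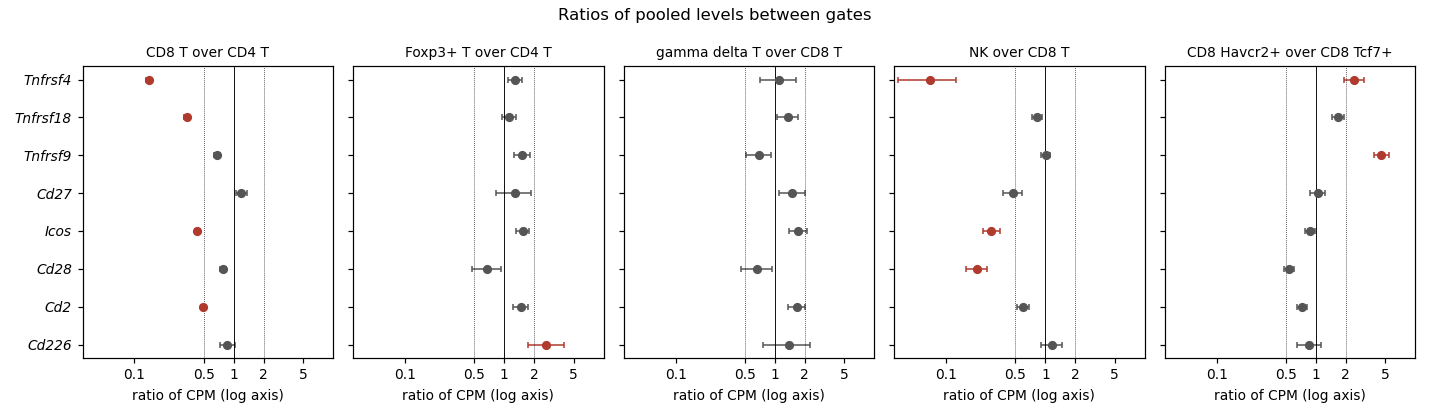
Ratio of pooled levels of each receptor in 5 comparisons, on a log axis, with 95% counting intervals. Red marks genes past the fold and dotted lines mark ratios of 0.5 and 2. Tnfrsf4 lies at 0.139 for CD8 over CD4 T cells and at 0.0684 for NK over CD8 T cells, and Tnfrsf9 lies at 4.56 for CD8 T cells with Havcr2 over those with Tcf7.

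The CD4 gate includes cells with regulatory markers, and the order of Tnfrsf9 turned when CD4 T cells with Il2ra or Ikzf2 were left out. In an alternative chosen after seeing the data, CD8 T cells were set against the 270 CD4 T cells with neither Il2ra nor Ikzf2, which 5 libraries held in sufficient number. The CD8 side was not filtered in this way, and 36.0% of CD8 T cells had a UMI of Ikzf2 and 12.8% of Il2ra. The same filter on both sides was not tested. Tnfrsf9 was then higher in CD8 T cells in 5 of 5 libraries, at 304 against 138 CPM, a ratio of 2.21 (1.84 to 2.67) that was past the fold. Tnfrsf4 (99.2 against 313 CPM, ratio 0.317) and Icos (254 against 619 CPM, ratio 0.410) were still lower in 5 of 5 and past the fold. Tnfrsf18 and Cd2 were lower in 5 of 5 at ratios of 0.573 and 0.642, short of the fold. By this rule 3.15% of 10971 genes were higher and 0.647% lower.

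Genes around the receptors followed in part. Of 8 ligand genes with enough UMIs, Tnfsf9 and Cd70, the ligands of 4-1BB and CD27, were lower in CD8 than in CD4 T cells, at 11.0 against 29.4 CPM and 5.83 against 27.4 CPM. Of 12 adaptor and NF-kB genes Traf1 (173 against 392 CPM) and Birc3 (36.2 against 78.7 CPM) were lower and none was higher, with a median log2 ratio of -0.70 beside -0.04 over all genes. None of the 11 signalling genes was past the fold (median -0.04). Among 10 related receptors Ctla4, the inhibitory relative of CD28, was at 167 against 512 CPM and Cd40lg at 1.79 against 41.1 CPM, while Cd244, a receptor for CD48, was higher at 27.5 against 6.85 CPM.

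Foxp3+ T cells carried the highest pooled level of 6 of the 8 receptors among the 5 gates, the exceptions being Cd27 (gamma delta T cells) and Cd28 (CD4 T cells). With 34 cells and no library holding 20 of them, these values rest on counting intervals alone. The levels were 915 CPM for Tnfrsf4 (785 to 1059), 766 for Tnfrsf18 (648 to 899), 678 for Tnfrsf9 (568 to 804), 910 for Icos (780 to 1054) and 807 for Cd2 (686 to 943). Against the CD4 gate 1 receptor was past the fold, Cd226, at 149 against 56.1 CPM and a ratio of 2.65 (1.72 to 3.96), on 29 UMIs. By this rule 2.69% of 8629 genes were higher and 2.1% lower. Icos, Tnfrsf9, Cd2 and Tnfrsf4 had ratios of 1.54, 1.51, 1.46 and 1.28, with intervals above 1, and Cd28 had 0.673 (0.473 to 0.931). Library 8, with 13 of the 34 Foxp3+ cells, weighed on these ratios. Without it Icos, Tnfrsf9 and Tnfrsf4 had ratios of 1.01 (0.740 to 1.35), 1.03 (0.762 to 1.35) and 1.01 (0.792 to 1.27), Cd2 had 1.16 and Cd28 0.937, all with intervals that include 1. Tnfrsf18 and Cd27 then fell below 1, at log2 values of -0.23 and -0.57, and Cd226 had 2.18 (1.05 to 4.10) on 11 UMIs. The Cd226 call was lost at 1000 UMIs per cell and in the larger gate described next. Of the listed genes around the receptors Ctla4 was higher, on 298 UMIs in Foxp3+ T cells. Slamf1 and Tnfsf9 were lower, on only 2 and 1 UMIs there, and the Tnfsf9 interval reached up to 0.999.

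Since Foxp3 was rarely detected, a second gate was added after the data had been seen. It joined the Foxp3+ T cells with CD4 T cells holding UMIs of both Il2ra and Ikzf2 (227 cells in all) and set them against 270 CD4 T cells with neither. The 39 Foxp3 UMIs lay in the first set by construction, and it had more UMIs per cell, with medians of 3760 against 2412.5. Tnfrsf9 was at 805 against 138 CPM, a ratio of 5.84 (4.82 to 7.14), Tnfrsf4 at 1088 against 313 CPM (3.48) and Tnfrsf18 at 962 against 399 CPM (2.41). Each was higher in 4 of 4 libraries and past the fold, where 2.51% of 7532 genes were higher and 1.13% lower. Cd28 went the other way, at 184 against 420.5 CPM, lower in 3 of 4 libraries, and Cd27 was lower in 4 of 4 at 83.7 against 111 CPM. Icos, at 687 against 619 CPM, was split with 2 libraries each way, and Cd2 (739 against 422 CPM) was higher in 3 of 4. Cd226, the receptor called with Foxp3+ T cells alone, was at 80.1 against 67.7 CPM, a ratio of 1.18 (0.840 to 1.68). It was higher in 1 and lower in 3 of 4 libraries.

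None of the receptors was past the fold between gamma delta and CD8 T cells, a comparison in which 2.71% of 10908 genes were higher and 1.44% lower. Icos (437 against 254 CPM, ratio 1.72), Cd2 (450.1 against 271 CPM, ratio 1.66), Cd27 (203 against 135 CPM, ratio 1.51) and Tnfrsf18 (309 against 229 CPM) had intervals above 1. Tnfrsf9 was at 212 against 304 CPM, ratio 0.696 (0.512 to 0.925), and Cd28 at 150.0 against 227 CPM, ratio 0.662 (0.458 to 0.928). Library 8 weighed on these values. Without it, with 53 of the 65 cells left, Cd2, Tnfrsf18 and Tnfrsf4 turned to log2 ratios of -0.38, -0.14 and -0.44, Cd27 stood at 116 against 115 CPM and the interval of Icos included 1 (ratio 1.38, 0.990 to 1.87). Tnfrsf9 and Cd226 were then past the fold, at log2 ratios of -1.47 and 1.12. Cd226 rested on 15 UMIs in all, and it stood at a log2 ratio of -0.07 without library 12, whose 2 gamma delta T cells held 5 of those UMIs. Tnfrsf4 also turned without library 7, to -0.54. Ctla4 and Tnfrsf25, which encodes death receptor 3, were the listed genes higher in gamma delta T cells, Tnfrsf25 on only 5 UMIs there (interval 3.67 to 32.9).

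NK cells lacked most of the Tnfrsf4 signal. Of the 7 libraries with 20 NK cells or more, 4 had no UMI of the gene in NK cells and the others at most 17.9 CPM, against 62.6 to 192 CPM in the CD8 T cells of the same libraries. The pooled levels were 6.79 and 99.2 CPM, a ratio of 0.0684 (0.0327 to 0.126). Cd28 (46.1 against 227 CPM, ratio 0.204) and Icos (72.6 against 254 CPM, ratio 0.286) were also past the fold and lower in 7 of 7 libraries. Of 11024 genes 3.5% were lower in NK cells by this rule and 1.18% higher. Cd27, at 63.1 against 135 CPM, was lower in 6 of 7 libraries, and without library 1 it too was past the fold (log2 ratio -1.23). Cd2 was lower in 7 of 7 at 161 against 271 CPM. Tnfrsf18 stood at 189 against 229 CPM, and Cd226 at 55.6 against 48.1 CPM with 4 libraries higher and 3 lower, its pooled log2 ratio being -0.05 without library 7.

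Tnfrsf9 gave different answers pooled and within libraries. Pooled, NK and CD8 T cells were at 306 and 304 CPM, a ratio of 1.01 (0.911 to 1.11). Within the 7 libraries that held 20 NK cells or more, NK cells were lower in 7 of 7, with 104 against 310 CPM in library 1, 190 against 240 in library 2, 235 against 486 in library 3, 473 against 484 in library 5, 226 against 352 in library 6, 180 against 279 in library 7 and 281 against 363 in library 11. The other 5 libraries, with 6 to 16 NK cells each, enter the pooled value alone, and 4 of them had the opposite order. NK cells were at 294 against 162 CPM in library 4, 223 against 147 in library 8, 228 against 136 in library 10 and 636 against 40.8 in library 12, and at 245 against 260 CPM in library 9. The pooled log2 ratio turned below 0 when library 5, 8 or 12 was left out, at -0.19, -0.13 and -0.11. Library 5 held 152 of the 418 NK cells and 618 of the 3605 CD8 T cells. Of the signalling genes Lck was lower in NK cells, and among ligands and related receptors Cd70, Ctla4 and Slamf1 were lower and Cd244 higher. The Cd70 call rested on 4 UMIs in NK cells, and its counting interval (0.124 to 1.24) included 1. None of the 12 adaptor and NF-kB genes was past the fold.

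Inside the CD8 gate, cells with a UMI of Havcr2 (TIM-3, carried by exhausted and effector cells) were set against cells with Tcf7 (TCF1, carried by naive, memory and stem-like cells) and no Havcr2. There were 608 cells with a median of 5008 UMIs and 364 cells with 3312 UMIs, and 5 libraries had 20 of both. Tnfrsf9 was higher with Havcr2 in 5 of 5 libraries, at 452, 571, 328, 397 and 316 CPM in libraries 2, 5, 6, 7 and 8 against 25.9, 230, 133, 159 and 70.3 CPM. The groups did not overlap, and the pooled ratio was 4.56 (3.84 to 5.45). The 2633 CD8 T cells in neither group had Tnfrsf9 at 290 CPM pooled, between 427 CPM with Havcr2 and 93.8 CPM with Tcf7. Tnfrsf4 was higher in the same 5 libraries, at 113, 132, 87.6, 118 and 126 CPM against 10.4, 121, 66.3, 73.6 and 31.4 CPM. These values overlapped and the ratio was 2.40 (1.92 to 3.02). The call was lost without library 8, at a log2 ratio of 0.96, and under 6 other alternatives of gating, filtering, weighting and thinning, with log2 ratios of 0.80 to 1.89. In 4 of these 6 the pooled ratio was still over 2 and 1 library was not higher. By this rule 1.99% of 9458 genes were higher and 1.33% lower.

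Cd28 had the opposite order, at 181 CPM with Havcr2 and 338 CPM with Tcf7 (ratio 0.536, 0.477 to 0.603), lower in 4 of 5 libraries. Library 8 was the exception, at 428 against 396 CPM, and without it Cd28 was past the fold (log2 ratio -1.21). Cd2 was lower with Havcr2 in 5 of 5 libraries by a smaller factor (0.725, 0.650 to 0.810). Tnfrsf18 was at 267 against 161 CPM and higher in 4 of 5 libraries. Cd27 (141 against 136 CPM), Icos (247 against 281 CPM) and Cd226 (47.4 against 55.7 CPM) had libraries on both sides. Among the genes of the 4 lists Cd244 was past the fold, at 37.1 against 7.21 CPM.

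**Figure D3:**
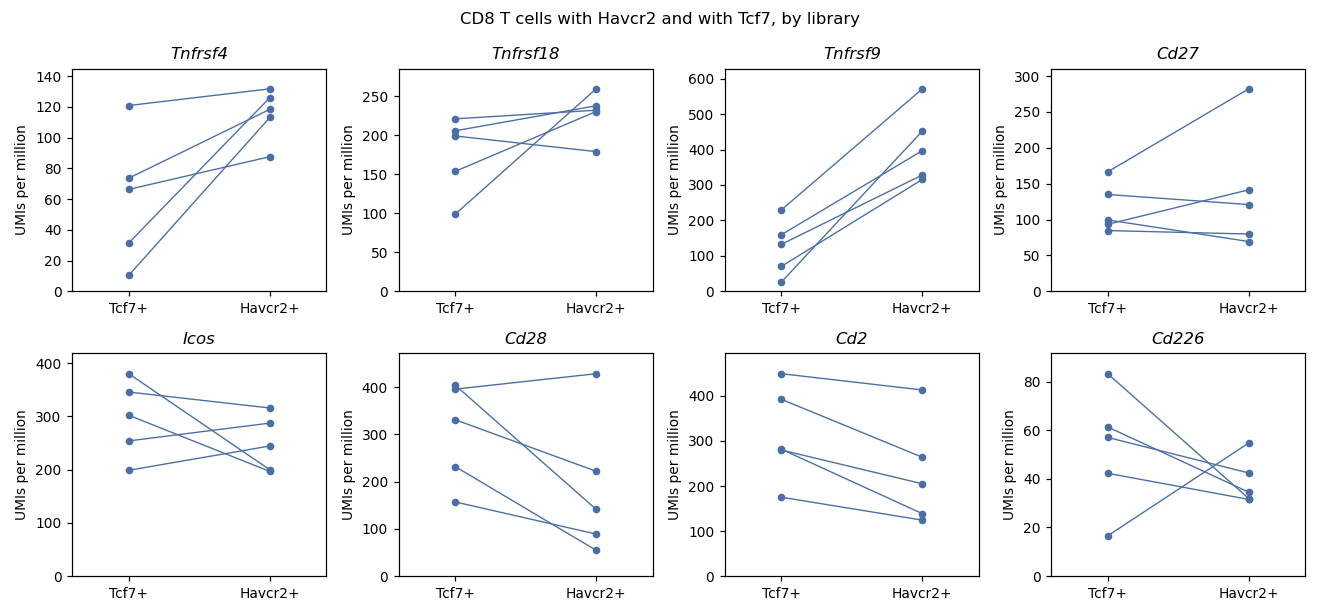
Level of each receptor in CD8 T cells with Tcf7 and no Havcr2 (left) and with Havcr2 (right), in CPM from 0. Each line is 1 of the 5 libraries that held 20 cells or more of both kinds. The lines rise in all 5 libraries for Tnfrsf9 and Tnfrsf4, fall in all 5 for Cd2 and fall in 4 of 5 for Cd28.

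Across the CD8 T cells of the 11 libraries, Tnfrsf9 spanned 11.9-fold, between library 12 (40.8 CPM, 15 UMIs in 46 cells) and library 3 (486 CPM, 647 UMIs in 224 cells). Without library 12 its span was 3.57-fold, with library 10 the lowest at 136 CPM, and that of Tnfrsf4 was 3.07-fold. With all libraries Tnfrsf4 spanned 4.43-fold and was lowest and highest in the same libraries. Cd28 spanned 3.72-fold, from 108 CPM in library 6 to 403 CPM in library 8. The other 5 spanned 1.92-fold (Tnfrsf18) to 2.81-fold (Cd2). Library 8 was the highest for Cd27, Icos, Cd28 and Cd2, at 216, 325, 403 and 428 CPM, and had Tnfrsf9 at 147 CPM, below the median.

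Some pairs of receptors met in the same CD8 T cell more or less often than their single shares within each library would give. Among 3275 CD8 T cells thinned to 1000 UMIs, 84 had both Tnfrsf4 and Tnfrsf18 where 42.1 would follow from independent detection, a ratio of 1.99, with 11 of 11 libraries above 1. Tnfrsf18 and Tnfrsf9 met in 159 cells against 125 (ratio 1.28, 11 of 11 libraries above). Tnfrsf9 and Cd28 met less often, at 0.73 with 9 of 11 libraries below 1, as did Tnfrsf4 and Cd28, at 0.70 with 9 of 11 below. Icos and Cd226 met in 42 cells against 29.5 (10 of 11 above). In 663 thinned CD4 T cells the ratio was 1.20 for Tnfrsf4 with Tnfrsf18 and 1.35 for Tnfrsf4 with Tnfrsf9. The low value of Tnfrsf4 with Cd28 was not seen there, at 1.07 with 6 libraries above 1 and 2 below. Tnfrsf9 with Cd28 was at 0.87, with 3 libraries above and 5 below. These counts are small, and differences in RNA content that remain after thinning were not separated from them.

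**Figure D4:**
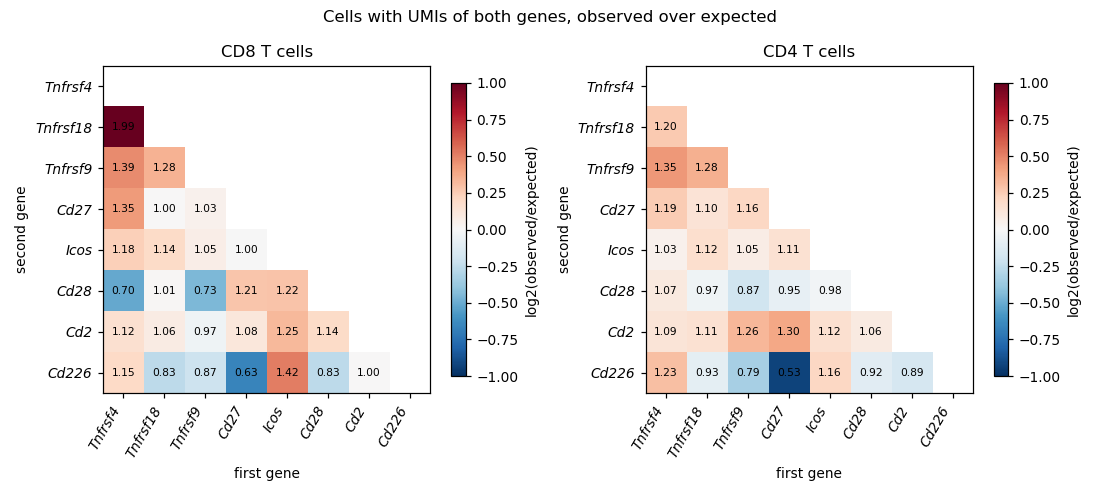
Number of thinned cells with UMIs of both genes divided by the number expected from each gene's share within libraries, in CD8 (left) and CD4 (right) T cells, with the ratio written in each field and its log2 as color. In CD8 T cells Tnfrsf4 with Tnfrsf18 gives 1.99 and Tnfrsf9 with Cd28 gives 0.73.

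Among the cell types gated outside the lymphocytes, 3 of the 4 members of the tumor necrosis factor receptor family, all but Cd27, were high in 1. Cells there that fell into no gated type were read only within a pool. Mature dendritic cells, gated on Ccr7 and Fscn1 (810 cells, at least 20 in every library), held Tnfrsf4 at 115 CPM (57.7 to 202, median 96.3), against 1.33 CPM in the other cells outside the lymphocytes. Tnfrsf18 was at 109 CPM (78.4 to 233, median 110.1) against 4.23 CPM, and Tnfrsf9 at 237 CPM (116 to 397, median 199.5) against 18.4 CPM. The ratios were 87.1, 25.8 and 12.9, each higher in 12 of 12 libraries and without overlap between the groups. By this rule 4.73% of 16196 genes were higher and 10.1% lower. The other 5 receptors were not past the fold and stayed at or below 4.68 CPM, with Cd27 on 8 UMIs, Icos on 18, Cd28 on 6, Cd2 on 9 and Cd226 on 5.

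The T cell genes Lck and Ctla4 stood at 1.04 CPM each in mature dendritic cells, and Trac and Trbc2 at 0, though the gate itself removed cells with the last 2. Nkg7 was at 4.16, Ikzf2 at 6.24 and Prf1 at 0 CPM. Other genes of the check were not low. Il2ra was at 126 CPM, in 32.8% of mature dendritic cells, and Klrd1 at 90.5 CPM, in 19.5%. Apoe was at 2043 CPM in this gate, and the part of mixed RNA was not tested. At 1000 UMIs per cell 19.0% of mature dendritic cells had Tnfrsf9, 10.0% Tnfrsf4 and 9.77% Tnfrsf18. The share of CD8 T cells with a UMI at the same depth was 19.9% for Tnfrsf9 and 6.72% for Tnfrsf4, and it was 17.9% for Tnfrsf18. The library ranges of CPM in the 2 cell types overlapped for all 3 genes, for Tnfrsf18 through library 10 alone. Mature dendritic cells had Tnfrsf18 at 233 CPM there, on 30 UMIs in 26 cells. Their next highest library had 128 CPM, below the lowest CD8 library at 166 CPM. Pooled, Tnfrsf18 stood at 109 CPM in mature dendritic cells against 229 CPM in CD8 T cells.

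**Figure D5:**
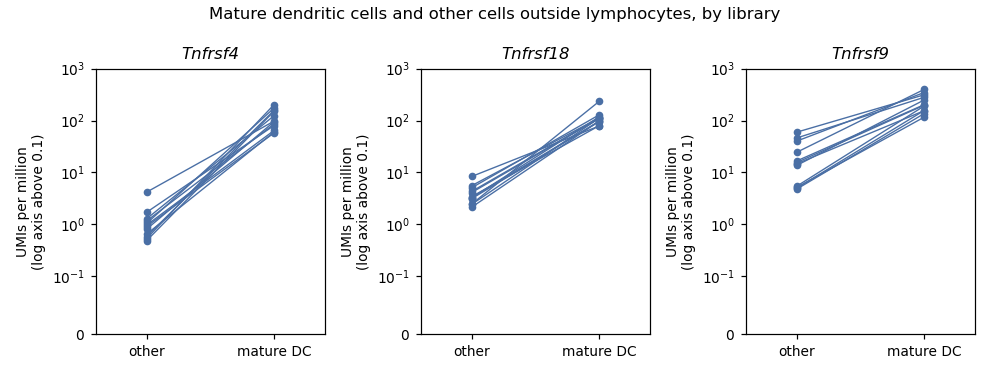
Level of Tnfrsf4, Tnfrsf18 and Tnfrsf9 in mature dendritic cells and in the other cells outside the lymphocytes, in CPM on an axis that is logarithmic above 0.1. Each line is 1 of 12 libraries, and all lines rise toward mature dendritic cells.

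The machinery below these receptors was high in the same cells. Of 12 adaptor and NF-kB genes 10 were past the fold and higher in mature dendritic cells, with a median log2 ratio of 1.93 beside 0.14 over all genes. Traf1, an adaptor of 4-1BB, was at 690.2 against 37.5 CPM, Birc2, a ubiquitin ligase, at 459 against 29.2 CPM, Relb, an NF-kB subunit, at 386 against 30.2 CPM, and Map3k14, the kinase NIK, at 197 against 19.4 CPM. Of 10 ligand genes 5 were higher, among them Tnfsf4, the OX40 ligand, at 29.4 against 0.356 CPM, Cd70 at 42.7 against 0.165 CPM and Cd80 at 182 against 37.5 CPM. Of the signalling genes Fyn and Pik3r1 were higher and Vav1, Pik3cd and Pstpip1 lower. Among 10 related receptors Slamf1 was higher, at 27.6 against 0.579 CPM, and Cd244 lower.

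The remaining cells outside the lymphocytes, taken as a pool, held the receptors at low CPM. In 64839 monocytes or macrophages Tnfrsf9 was at 18.2 CPM, on 8532 UMIs found in 4.36% of the cells. The T and NK cells together, far fewer in number, held 6015 UMIs of the gene. Over the libraries, Tnfrsf9 in monocytes or macrophages ran from 4.08 to 63.9 CPM (median 13.9). Libraries 4, 12 and 10 were highest, at 63.9, 47.5 and 45.9 CPM. In the same cells Tnfrsf4 was at 0.955 CPM, Tnfrsf18 at 3.13, Cd27 at 1.06, Icos at 0.707, Cd28 at 1.59, Cd2 at 1.27 and Cd226 at 0.267 CPM. Type 1 dendritic cells held Tnfrsf18 at 20.8 CPM (11.5 to 46.8 over 11 libraries), and neutrophils had it at 11.2 CPM. Neutrophils had Tnfrsf9 at 14.4 CPM, Cd28 at 4.30, Cd2 at 3.44, Tnfrsf4 at 2.15, Cd27 at 1.29 and Icos at 0.860 CPM, and no Cd226 UMI in 1971 cells. B cells had Cd27 at 8.06, Cd28 at 3.58 and Tnfrsf4 at 1.79 CPM. They had no Icos or Cd226 UMI in 398 cells with a median of 1615 UMIs, which limits cells with a UMI to a share of 0.754% (3 cells) and does not limit cells expressing the gene. Cd2 was found in the B cell gate on 103 UMIs, at 92.2 CPM (12.4 to 275 over 5 libraries), and Tnfrsf18 and Tnfrsf9 were at 12.5 and 9.85 CPM there.

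Over 27 sums of a library and a gate (11 of CD8 T, 9 of CD4 T and 7 of NK cells), the genes most like each receptor were ranked by Pearson's r of log2(CPM + 1) among 7054 genes. The points share libraries and gates, so r is a description. Icos went most closely with Ctla4 (0.97), then Izumo1r, Slamf1, Penk and Trat1. Tnfrsf4 went with Cd5 (0.93), Gpm6b, Izumo1r, Ctla4 and Sdcbp2, and Tnfrsf18 with Fam46a (0.93), Nrip1, Sdf4, Gadd45b and Mif4gd. Cd28 was nearest to Sit1 (0.91), Themis, Cited2, Cd5 and Grap2, and Cd2 to Pkp3 (0.86), Vamp5, Ltb, Myl12b and Orai1. Tnfrsf9 was nearest to Areg (0.88), S100a11, Itgav, Fam110a and Rbpj, and Cd27 to Tapbpl (0.81), Saraf, Ms4a6b, Ptpn18 and Hcst. No gene came closer to Cd226 than Ubxn2a (0.66), followed by Trip4, Il2rg, Rnaset2a and B9d2. Between the receptors themselves r was highest for Tnfrsf4 with Icos (0.89) and lowest for Tnfrsf9 with Cd27 (-0.36).

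Genomic neighbours appear among these genes. Sdf4 was listed for Tnfrsf18, from which it lies 12553 bases away, and not for Tnfrsf4, which starts 232 bases after it. Sdf4 was at 658 CPM in CD4 T cells (495 to 1002 over 9 libraries) and 224 CPM in CD8 T cells (133 to 316 over 11 libraries), without overlap, against 141 CPM both in NK cells and outside the lymphocytes. Mature dendritic cells, which held Tnfrsf4, had Sdf4 at 166 CPM. Tapbpl, 761 bases from Cd27 on the same strand, was at 75.3 CPM in CD8 and 66.1 CPM in CD4 T cells and at 26.1 CPM outside the lymphocytes. Whether reads were shared between such neighbours was not tested, so the levels of Tnfrsf4 and Cd27 and of their neighbours carry that uncertainty.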

How the data were processed

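The authors deposited 1 matrix of raw UMI counts, genes by barcodes and not normalized, from 10x Genomics 3′ libraries of CD45+ cells. The processing notes name Cell Ranger 2.1.1, Seurat and mm10, and the matrix header names Cell Ranger 3.0.2, so which version was used is unsettled. The annotation version is not given in the sources used here. From the counts, barcodes were kept (128912 of 140639) if they had over 200 and under 5000 genes and no more than 10% of UMIs from mitochondrial genes. T cell gates needed a CD3 UMI, the NK gate 2 NK UMIs and no CD3 UMI, and all allowed at most 1 UMI of other lineages. Doublets were limited by these rules alone, without a caller, and 13 cells in more than 1 gate were left out. Depth ran from 21649947 to 158760328 UMIs per library.

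UMIs were summed per library and gate. A ratio used genes with at least 20 UMIs over both sides, and a level of 0 was replaced by 3 counts. There were 7 comparisons, without p-values, as libraries are not tied to mice. Intervals are exact (Clopper-Pearson). The fold rule by interval, used for Foxp3+ and gamma delta T cells, and the splits by Il2ra and Ikzf2 were added after the data were seen. The named genes were the 8 members, 4 lists (ligands, adaptors and NF-kB, signalling, related receptors) and the 5 genes most like each member among those with at least 200 UMIs. Members and lists were chosen with earlier results of these data known. Cd244a is listed as Cd244. Some genes of the signalling list are not reported here. Positions are from GENCODE M21 by Ensembl ID. The ratio and call steps were tested on simulated data. Python 3.11.15, numpy 2.4.6, scipy 1.17.1 and pandas 2.3.3 were used.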

Additional observations from a re-analysis of the deposited data

How the results depend on the processing

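The alternatives were other gates, cell filters and minimum UMIs, thinning, equal weighting of libraries and leaving out each library. No receptor past the fold changed direction under any of them. Between CD8 T cells with Havcr2 and with Tcf7, 2 receptors were higher, and 1 remained counted with at least 2 CD3 UMIs, with no UMI of other lineages, with a mitochondrial limit of 5%, without the 10% of cells with most UMIs, with libraries weighted equally and with 1000 UMIs per cell; Tnfrsf4 was the one that dropped out each time. Its log2 ratio fell short of 2-fold with no UMI of other lineages (0.80) and with equal weighting (0.93); under the other 4 it was still over 2-fold (1.26, 1.13, 1.89 and 1.45 in that order, against 1.26) and 1 library was not higher. Leaving out single libraries gave 1 to 2 higher and 0 to 1 lower there, library 8 deciding both. Between gamma delta and CD8 T cells, where none was past the fold, 1 was higher at the 5% limit (Icos), 1 was lower without the 10% of cells with most UMIs and with 1000 UMIs per cell (Tnfrsf9), and leaving out libraries gave 0 to 1 in each direction. Between Foxp3+ and CD4 T cells 0 instead of 1 were higher at 1000 UMIs per cell. With the gate on Il2ra and Ikzf2 3 were higher (Tnfrsf4, Tnfrsf18 and Tnfrsf9) and 1 lower (Cd28) by the interval rule, Cd28 not being past the fold by the rule on libraries. Cd226, the 1 called with Foxp3+ T cells, lost its call with that gate. Its log2 ratio was 0.24 against 1.41, and it was higher in 1 of 4 libraries. Equal weighting gave no value for these last 2 comparisons, since no library had 20 such cells. At 500 instead of 1000 UMIs the shares of CD8 T cells with a UMI were 3.25% for Tnfrsf4, 10.04% for Tnfrsf18, 11.8% for Tnfrsf9, 6.57% for Cd27, 12.4% for Icos, 10.4% for Cd28, 11.9% for Cd2 and 2.08% for Cd226, as fewer UMIs are drawn. Without library 6 the shares at 1000 UMIs were 17.8% for Tnfrsf9, 22.6% for Cd28 and 25.2% for Cd2, against 19.9%, 19.9% and 23.0% with it. Between CD8 and CD4 T cells the call of Cd2 was lost at the 5% limit (log2 ratio -0.97), with equal weighting (-0.93) and at 1000 UMIs, and that of Icos with no UMI of other lineages; the last 2 log2 ratios were still over 2-fold, at -1.06 and -1.23, and 1 of 8 libraries had the other order. Against the cells outside the lymphocytes 7 of 8 receptors kept the call at 1000 UMIs (not Cd27, higher in 11 of 12 libraries at a log2 ratio of 6.46) and with CD8 T cells alone (not Tnfrsf9, higher in 10 of 11 at 3.95). Against CD4 T cells without Il2ra and Ikzf2, chosen after seeing the data, 1 receptor was higher in CD8 T cells (Tnfrsf9) and 2 were lower (Tnfrsf4 and Icos), in place of 0 and 4. The numbers of Foxp3+ and gamma delta T cells, 34 and 65, limit their intervals. Gates were set against each other within libraries. No analysis by mouse or treatment group was possible because the libraries carry numbers that no label ties to mice or groups.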
